A study of Mus musculus with 15 samples.

Results

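The 10 transcription factors that hold a pancreatic beta cell in its mature state, namely Pdx1, Nkx6-1, Nkx2-2, Neurod1, Mafa, Isl1, Pax6, Rfx6, Insm1 and Foxa2, were examined for 2 histone marks in mouse islets on 3 diets. They were chosen by name, as 10 of 21938 protein-coding genes of GENCODE mouse release 21 (GRCm38), and each was followed at its promoter, taken as 1000 bp either side of any annotated start site, and over its locus, taken as the gene body with 20 kb on each side. All groups were pancreatic islets of adult male CBA mice with no genetic change. The mice received a regular diet (RD), a high-fat diet (HFD) or the high-fat diet formulated with O304 (HFD-O304), a compound described by the study as an activator of the energy-sensing kinase AMPK. Pooled islets went into chromatin immunoprecipitation and sequencing (ChIP-seq), with 12 ChIP samples (2 for each mark and diet) and 3 input samples, and the replicates of each mark and diet were merged before peaks were called. Islets hold alpha, delta and other cells beside beta cells, so fewer cells that carry a mark and less of the mark per cell cannot be told apart.

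H3K27Ac, acetylation of histone H3 at lysine 27, lies at active promoters and enhancers. H3K27Me3, trimethylation of the same lysine by Polycomb complexes, lies at silenced developmental genes, and a single histone tail cannot carry both. The factors bind to each other's promoters and enhancers as well as to the insulin genes, and long stretches of H3K27Ac are known to lie over genes that define a cell type.

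With 1 merged peak list for each mark and diet there was no replicate error, and no difference between diets could be tested. The level of a peak is given as its pileup, the mean number of fragments over each of its bases, divided by the uniform background of its list. The called bases of a peak can differ between lists, so levels compared between diets are not taken over the same bases. Bracketed intervals are 95% Poisson intervals on the fragments behind a peak and cover counting error only. The 3 H3K27Ac lists rested on 83773042 (RD), 95218072 (HFD) and 84694188 (HFD-O304) kept fragments, and the lowest level called was 2.40, 2.26 and 2.37 in the same order. For H3K27Me3 these limits were 2.74, 3.10 and 2.97 on 74870300, 54166902 and 57324419 fragments. Of 6 beta cell marker genes, 3 (RD), 4 (HFD) and 3 (HFD-O304) held promoter H3K27Ac. Over all protein-coding genes the shares were 47.4%, 53.5% and 52.8%. The beta cell counts are near these shares, so the cell makeup of the islets is not read from marker counts. The counts were 0, 0 and 1 of 4 alpha cell markers, 0 of 2 delta cell markers in each list, 1 of 6 acinar markers in each, 1, 1 and 2 of 4 duct markers, and 0 of 4 endothelial and 0 of 4 macrophage markers in each.

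Among the 10 genes, Neurod1 was called at its promoter on some diets and not on others, and Nkx6-1 carried both marks in a list. Their sequences before the start site are therefore shown, with that of Pdx1 added after its values were seen because its start site was covered in a single list. Each run holds the 250 bases before the 5′ end of the gene on its own strand, read from the GRCm38 reference sequence of RefSeq (C57BL/6J). Capitals mark E-boxes (CANNTG), the motif bound by the basic helix-loop-helix family to which Neurod1 belongs.
Neurod1, chr2:79456752-79457001, minus strand: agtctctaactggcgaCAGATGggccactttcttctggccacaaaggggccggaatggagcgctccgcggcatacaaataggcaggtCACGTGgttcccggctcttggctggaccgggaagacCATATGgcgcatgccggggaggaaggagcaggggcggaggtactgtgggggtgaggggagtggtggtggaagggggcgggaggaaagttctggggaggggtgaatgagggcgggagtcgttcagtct
Nkx6-1, chr5:101664997-101665246, minus strand: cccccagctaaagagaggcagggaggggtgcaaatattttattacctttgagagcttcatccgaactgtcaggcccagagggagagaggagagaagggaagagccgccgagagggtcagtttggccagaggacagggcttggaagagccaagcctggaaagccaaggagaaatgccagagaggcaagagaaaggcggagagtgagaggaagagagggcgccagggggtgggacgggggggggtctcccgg
Pdx1, chr5:147269709-147269958, plus strand: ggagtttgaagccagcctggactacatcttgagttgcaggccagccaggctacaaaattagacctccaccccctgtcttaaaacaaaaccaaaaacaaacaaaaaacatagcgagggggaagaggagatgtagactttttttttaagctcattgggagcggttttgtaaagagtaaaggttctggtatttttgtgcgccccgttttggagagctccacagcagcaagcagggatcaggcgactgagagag

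The Neurod1 stretch, which overlaps an exon of its neighbour Cerkl, held 3 E-boxes, and those of Nkx6-1 and Pdx1 held 0. RefSeq's promoter table (GRCm38.p6) had entries for 8 of the 10 genes, the others being Mafa and Insm1. Of these 8, 4 (Nkx2-2, Neurod1, Isl1 and Rfx6) held an E-box in this stretch, against 64.1% of 21931 promoters of the same length. The other motifs were searched on both strands as well. TAATTA and CTAATG, the letters of homeodomain sites, were in 0 of the 8 against 4.99% and 6.23% of all promoters. The forkhead motif TGTTTAC was in 0 against 2.66%, and the TATA box TATAAA in 0 against 11.5%. GTTGCC, part of an RFX site, was in 1 (Pax6) against 9.91%, and TGCTGA, part of a MAF site, in 1 (Nkx2-2) against 14.8%. None of these motifs overlapped in the stretches printed. Guanine and cytosine made up 46.8% (Pdx1) to 74.8% (Nkx2-2) of the 8 stretches, with a median of 62.2% against 54.0% for all promoters. CpG dinucleotides reached 1.05 of the number expected from base composition at Isl1 and 0.37 at Nkx6-1 and Pdx1.

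At the promoters, 9 of the 10 factors held an H3K27Ac peak in RD islets, and 10 of 10 did so in islets of HFD and HFD-O304 mice. Over all protein-coding genes the share was 47.4% on RD, 53.5% on HFD and 52.8% on HFD-O304. Neurod1 was the gene without a promoter peak on RD. Its RD peak lay inside the gene and began 1504 bp after the start site, while the HFD peak began 773 bp after it and the HFD-O304 peak began 501 bp before it. The call at Neurod1 therefore turned on where the edge of a peak fell, and with a window of 2000 bp all 10 factors were called on RD. H3K27Me3 was held by 0 of the 10 promoters on RD or HFD and by 1 on HFD-O304, against 8.03%, 9.91% and 10.6% of all genes, and counts this low over 10 genes are near those shares.

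**Figure D1:**
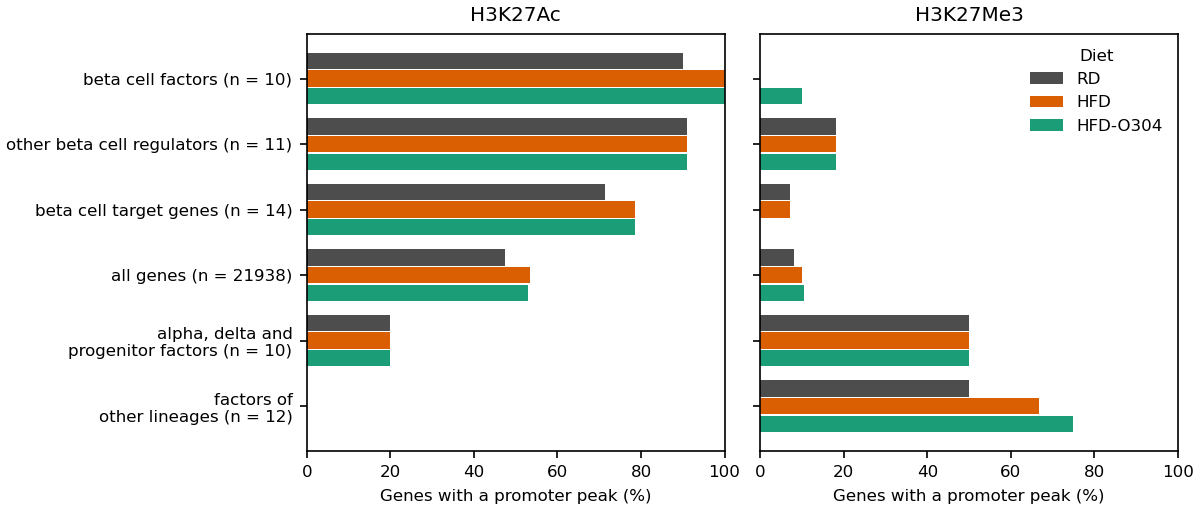
Share of genes with a promoter peak (horizontal axis, %) of H3K27Ac (left) and H3K27Me3 (right) in each peak list, for the 10 beta cell factors, 4 other gene lists and all 21938 protein-coding genes; bars are coloured by diet and each is 1 merged list without error. The beta cell factors were at 90% or 100% for H3K27Ac, and the factors of other lineages were at 0% for H3K27Ac and 50% to 75% for H3K27Me3.

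The factors stood beside other genes of the islet programme in this. Among 11 other beta cell regulators (such as Hnf4a, Mnx1 and Glis3) 10 held promoter H3K27Ac in each list, and 2 held H3K27Me3 in each. Of 14 beta cell target genes, which encode insulin and the machinery of glucose sensing and secretion, 10 were called on RD, 11 on HFD and 11 on HFD-O304. Of 10 factors of alpha cells, delta cells and progenitors, 2 held H3K27Ac and 5 held H3K27Me3 in each list. Of 12 factors of other lineages, such as muscle, blood and brain, 0 held H3K27Ac in any list, while 6 (RD), 8 (HFD) and 9 (HFD-O304) held H3K27Me3. Among the regulators and targets, 4 calls differed between diets. The share of all genes whose call differed was not computed, so no effect of diet is read from these calls. Ins1, an insulin gene whose reads can be shared with its close copy Ins2, had H3K27Ac levels of 2.86 on RD and 3.12 on HFD and no promoter peak on HFD-O304. Slc2a2, the glucose transporter of the beta cell, was called on HFD at 2.55 and on HFD-O304 at 2.73, with −log10 q of 3.57 and 3.90. Slc30a8, the zinc transporter of insulin granules, was called on HFD-O304 alone, at 2.54 with −log10 q of 2.89. Glp1r, the receptor of the incretin GLP-1, held an H3K27Me3 promoter peak at 3.71 on RD and 3.41 on HFD and none on HFD-O304.

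Promoter H3K27Ac levels of the factors were spread over the range of called promoters. The median over the called factors was 3.17 on RD, 3.21 on HFD and 3.47 on HFD-O304, beside 3.17, 3.27 and 3.31 for all called genes. Nkx6-1, a homeodomain repressor needed for beta cell maturity and insulin secretion, had the highest level in every list, at 4.06 (3.78 to 4.35) on RD, 4.20 (3.94 to 4.48) on HFD and 4.36 (4.05 to 4.69) on HFD-O304. This placed it at percentile 91.3, 89.3 and 92.5 of all called promoters. The lowest levels were those of Pdx1 on RD, at 2.93 (2.65 to 3.24), and of Neurod1 on HFD and HFD-O304, at 2.73 (2.42 to 3.07) and 2.91 (2.64 to 3.21). Ordered by level, the factors ran Nkx6-1, Insm1, Isl1, Nkx2-2, Mafa, Foxa2, Rfx6, Pax6 and Pdx1 on RD. On HFD the order was Nkx6-1, Insm1, Nkx2-2, Isl1, Foxa2, Pdx1, Pax6, Rfx6, Mafa and Neurod1, and on HFD-O304 it was Nkx6-1, Isl1, Insm1, Mafa, Nkx2-2, Foxa2, Pdx1, Pax6, Rfx6 and Neurod1. Neighbours in these orders overlapped in their counting intervals in 8 of 8 pairs on RD and in 9 of 9 pairs in each of the other lists, so that the ends of each order were apart and single steps were not.

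**Figure D2:**
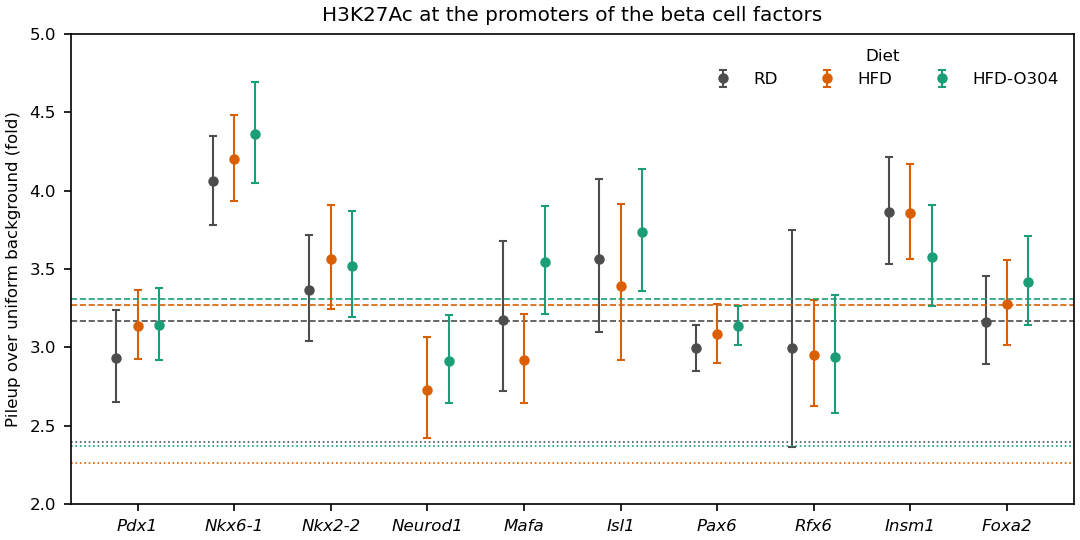
H3K27Ac level at the promoter of each factor, as pileup over the uniform background (vertical axis, fold, from 2 to 5), for the promoter peak with the highest pileup in each diet; points are merged lists and bars are 95% Poisson intervals. Dashed lines give the median of all called promoters and dotted lines the lowest level called in each list; Nkx6-1 sat above 4 on every diet and Neurod1 had no promoter peak on RD.

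Between diets the levels of the factors lay close together. From RD to HFD the median log2 change over the 9 factors called in both was 0.04, from -0.12 (Mafa) to 0.10 (Pdx1), beside 0.07 over 10204 genes. Between HFD and HFD-O304 the median was 0.04 over 10 factors and 0.02 over 11056 genes, and between RD and HFD-O304 it was 0.07 over 9 factors and 0.08 over 10151 genes. Neurod1 could not enter the comparisons with RD. A promoter was called changed when its log2 change exceeded 0.32 in size, and 0 of the factors were called in any of the 3 comparisons. Among all genes, 6.68% were called upward and 0.598% downward on HFD against RD, 1.98% and 1.29% on HFD-O304 against HFD, and 7.97% and 0.581% on HFD-O304 against RD. Shares of this size over 10 genes allow a count of 0. Of the 28 changes of the factors, 1 had a counting interval that left out 0, at Mafa from HFD to HFD-O304. Over all genes such an interval was met in 9.49% on HFD against RD, 4.65% on HFD-O304 against HFD and 9.79% on HFD-O304 against RD, so that 1 of 28 is no more than the shares of all genes.

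Mafa (chr15:75745490-75748228, minus strand), a basic leucine zipper factor that switches on insulin in mature beta cells and is among the first to be lost under metabolic stress, had a promoter level of 3.17 (2.72 to 3.68) on RD, 2.92 (2.64 to 3.21) on HFD and 3.55 (3.21 to 3.90) on HFD-O304. Its log2 change from HFD to HFD-O304 was 0.28 (0.08 to 0.48 by counting), at percentile 96 of all genes and under the limit of 0.32. The interval holds no variation between mice, and the 3 comparisons share their lists. From RD to HFD the change was -0.12 (-0.38 to 0.14), an interval that holds 0. The RD and HFD levels are means over peaks of unlike width, and no decline is read from them. The peak was also wider on both high-fat diets, with 1231 bp on RD, 2758 bp on HFD and 2601 bp on HFD-O304. On RD it began 777 bp after the start site, and on HFD and HFD-O304 it began 708 and 875 bp before it.

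The promoter peaks of the factors were wide. The widest promoter peak of a factor had a median of 2911 bp on RD, 3357 bp on HFD and 3588 bp on HFD-O304, beside 979, 1100 and 1077 bp over all called genes. A width past the 95th percentile of all promoters was reached by 6 of 9 factors on RD, 6 of 10 on HFD and 8 of 10 on HFD-O304, where 5%, 5.01% and 5% of all called genes lie by construction. The called genes of the most similar lists were wider than all called genes as well, and nothing particular to the factors is read from width. The same median was 2322, 3021 and 3008 bp for the called beta cell target genes and 1989, 2145 and 1934 bp for the called other regulators on RD, HFD and HFD-O304. Genes with many annotated start sites have more windows in which a wide peak can be met, and Pax6 has 24 of them, Isl1 5 and Nkx2-2, Rfx6 and Foxa2 4 each, while Pdx1, Nkx6-1, Neurod1, Mafa and Insm1 have 1.

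**Figure D3:**
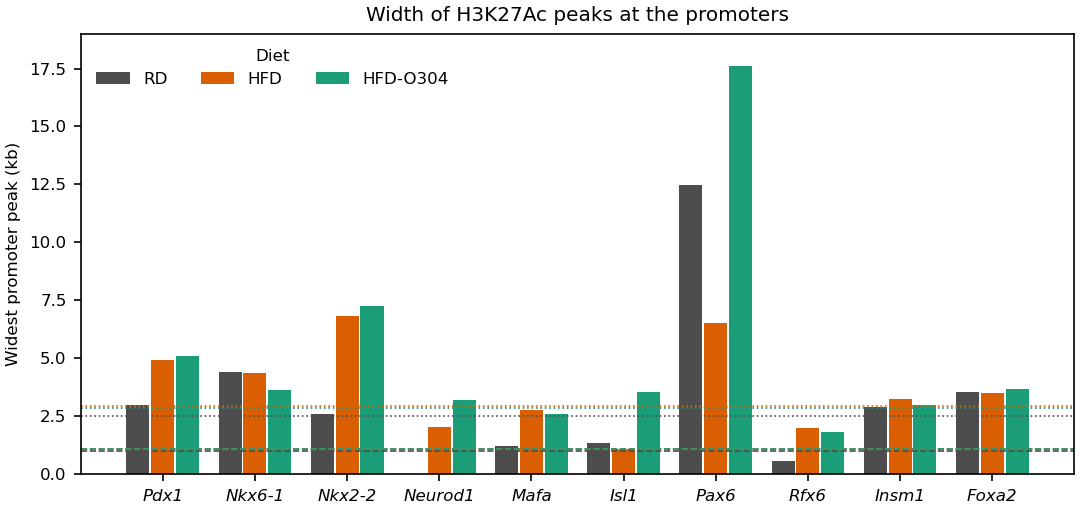
Width of the widest H3K27Ac peak at the promoter of each factor (vertical axis, kb) in each merged list, coloured by diet and without error bars. Dashed lines mark the median and dotted lines the 95th percentile of all called promoters; Pax6 reached 12487 bp on RD, 6514 bp on HFD and 17606 bp on HFD-O304, and Neurod1 has no bar on RD.

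Pax6, a paired-box factor of all islet endocrine cells (chr2:105668900-105697364, plus strand), carried the longest stretch. On RD a peak of 12487 bp ran from 2341 bp before the start site into the gene, at a level of 2.99 (2.85 to 3.14). Peaks of 1189 and 1166 bp followed it in the same stretch. On HFD the stretch was also called as 3 peaks, of 4024, 6514 and 3886 bp, the longest at 3.08 (2.90 to 3.28). On HFD-O304 it was called as 1 peak of 17606 bp at 3.14 (3.02 to 3.26). The bases covered over the whole locus differed much less, with 18361 bp on RD, 17778 bp on HFD and 20668 bp on HFD-O304. The places where the stretch was split thus changed the width of the longest peak far more than the bases marked. The window also holds the start sites of Pax6os1 and Paupar, noncoding RNAs of the locus, and the upstream HFD-O304 peak of 1622 bp lay within 1000 bp of a Paupar start site.

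Pdx1, the homeodomain factor that founds the pancreas and later drives insulin transcription (chr5:147269959-147275848, plus strand), differed between lists mainly at its start site. On RD its promoter peak of 2983 bp began 233 bp after the start site. On HFD a peak of 4934 bp began 1707 bp before it and ran across it. On HFD-O304 there was a peak of 722 bp that ended 932 bp before the start site and another of 5093 bp that began 207 bp after it. The levels were 2.93 (2.65 to 3.24), 3.14 (2.92 to 3.37) and 3.14 (2.92 to 3.38) on RD, HFD and HFD-O304, with overlapping intervals. The gap between the HFD-O304 peaks holds the 250 bases printed above, of which 54.4% are repeat-masked in the reference, and the part of read mapping in the gap was not tested. A start site of Plut, the antisense RNA next to Pdx1, lies within 1000 bp of the longest of these peaks in each list.

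Over the 10 factors any start site was covered by an H3K27Ac peak in 7 genes on RD, 9 on HFD and 9 on HFD-O304, against 39.4%, 46.5% and 45.5% of all genes. The genes left uncovered were Pdx1, Neurod1 and Mafa on RD, Neurod1 on HFD and Pdx1 on HFD-O304.

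Nkx6-1 (chr5:101658139-101664996, minus strand) held a promoter peak of 4392 bp on RD, 4369 bp on HFD and 3639 bp on HFD-O304. It was the single factor with both marks at the promoter, on HFD-O304 alone, where 3.43% of all genes had both. On RD and HFD, 0 of the 10 factors had both, against 2.53% and 3.88%. The H3K27Me3 peak spanned 282 bp of coding sequence, from 827 to 1108 bp after the start site, inside the H3K27Ac peak. Its level was 3.02 with −log10 q of 2.36, close to the lowest level called in that list. Its sequence is shown with CpG dinucleotides in capitals, since Polycomb marks are known to lie at CpG-rich DNA.
Nkx6-1 H3K27Me3 peak, chr5:101663888-101664169, minus strand: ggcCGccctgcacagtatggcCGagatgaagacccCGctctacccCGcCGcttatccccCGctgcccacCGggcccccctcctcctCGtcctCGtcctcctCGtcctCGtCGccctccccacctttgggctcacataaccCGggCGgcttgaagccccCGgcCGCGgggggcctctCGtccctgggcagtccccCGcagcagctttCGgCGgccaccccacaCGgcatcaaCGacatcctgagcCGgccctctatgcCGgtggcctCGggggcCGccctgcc
These 282 bases held 27 CpG dinucleotides, 0.79 of the number expected, with 72.7% guanine and cytosine. The lowest level called was higher in the HFD list than this peak's level, so that a peak of the same height could not have been called there, and on RD a peak at 3.02 could have been called and was not.

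Nkx2-2 (chr2:147177546-147194243, minus strand), a homeodomain factor that represses alpha and epsilon cell genes in beta cells, held its strongest promoter peak across the start site on every diet. That peak measured 2603 bp on RD, 2488 bp on HFD and 2639 bp on HFD-O304, at levels of 3.37 (3.04 to 3.72), 3.56 (3.24 to 3.91) and 3.52 (3.19 to 3.87). The gene body was covered more continuously on the high-fat diets. RD had separate peaks of 1990, 410 and 2158 bp there, where HFD had 1 peak of 6844 bp and HFD-O304 1 peak of 7245 bp. Start sites of Nkx2-2os and 6430503K07Rik lie within 1000 bp of this stretch, and reads do not tell which gene a mark belongs to.

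Neurod1 (chr2:79452521-79456751, minus strand), which turns on insulin and the endocrine programme downstream of Neurog3, had its gene body peak in all lists, with 1055 bp on RD, 2045 bp on HFD and 3204 bp on HFD-O304. The levels of these peaks were 2.86, 2.73 and 2.91 in that order. A further H3K27Ac region lay 2.59 kb before the start site in all 3 lists, at 482, 1113 and 540 bp and levels of 2.61, 2.55 and 2.61 on RD, HFD and HFD-O304. The bases common to the 3 lists are shown because they were marked on every diet while the promoter call varied. They overlap an exon of the noncoding gene Gm26755, and capitals mark its E-box.
Neurod1 upstream region, chr2:79459176-79459472, minus strand: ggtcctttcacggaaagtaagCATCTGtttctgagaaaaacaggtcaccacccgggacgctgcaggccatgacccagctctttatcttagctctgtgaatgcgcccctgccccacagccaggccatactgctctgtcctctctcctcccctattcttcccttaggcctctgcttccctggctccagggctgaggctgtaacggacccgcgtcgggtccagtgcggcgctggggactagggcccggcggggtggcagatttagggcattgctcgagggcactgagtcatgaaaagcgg
This stretch of 297 bases held 1 E-box and 60.3% guanine and cytosine. Gm26755 has a start site within 1000 bp of the gene body peak in all 3 lists. Cerkl, a gene next to Neurod1, also has a start site within 1000 bp of that peak on HFD and HFD-O304. The mark there cannot be assigned to 1 of the genes on any diet.

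Insm1 (chr2:146221921-146225020, plus strand), a zinc finger factor of endocrine differentiation, came next to Nkx6-1 on RD and HFD, at 3.86 (3.53 to 4.21) and 3.86 (3.56 to 4.17), and stood at 3.57 (3.26 to 3.91) on HFD-O304. Its peak measured 2911, 3230 and 2993 bp and covered the start site on each diet. The log2 change from HFD to HFD-O304 was -0.11 (-0.28 to 0.06), within counting error.

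Isl1 (chr13:116298281-116309689, minus strand), a LIM-homeodomain factor of islet cells, was at 3.56 (3.10 to 4.08) on RD, 3.39 (2.92 to 3.91) on HFD and 3.73 (3.36 to 4.14) on HFD-O304. Its strongest promoter peak measured 1324 bp, 1081 bp and 2150 bp. Over the locus 2665 bp were covered on RD, 2357 bp on HFD and 6238 bp on HFD-O304, and the ratio of the last to HFD was 2.65, at percentile 98.5 of all genes. The gene body held a peak of 3537 bp on HFD-O304, at a level of 2.56 and −log10 q of 3.05. In the same stretch RD had a peak of 591 bp and HFD had peaks of 290 and 360 bp. The level of 2.56 is near the lowest called in the HFD-O304 list, 2.37. The ratio was picked from many compared, and nothing is read from it alone.

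Rfx6 (chr10:51677756-51730432, plus strand), a winged-helix factor acting in endocrine progenitors and in mature beta cells, had the fewest covered bases of the 10 in each list. Its single H3K27Ac peak measured 573 bp on RD, 1994 bp on HFD and 1801 bp on HFD-O304, with levels of 3.0 (2.37 to 3.75), 2.95 (2.63 to 3.30) and 2.94 (2.58 to 3.34). The width ratio of HFD to RD was 3.48 while the level stayed within its interval. Rfx6 was also the only other factor with H3K27Me3 in its locus, on RD at 2 peaks of 268 and 235 bp and on HFD-O304 at 1 peak of 271 bp, which lay from 66549 to 72650 bp after the start site. These peaks were 100% repeat-masked. The bases common to RD and HFD-O304 are shown, with CpG dinucleotides in capitals, because they are repeated DNA, where short reads can be hard to place. The part of read mapping in these peaks was not tested.
Rfx6 downstream region, chr10:51744395-51744572, plus strand: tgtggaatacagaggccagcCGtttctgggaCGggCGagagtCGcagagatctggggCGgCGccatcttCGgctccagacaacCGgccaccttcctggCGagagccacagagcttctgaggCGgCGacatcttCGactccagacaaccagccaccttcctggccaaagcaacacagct
This run of 178 bases held 12 CpG dinucleotides, 0.71 of the number expected.

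Foxa2 (chr2:148042877-148046969, minus strand), a forkhead pioneer factor of endoderm that opens chromatin for the others, was marked over its start site on every diet. Its peak measured 3566 bp on RD, 3484 bp on HFD and 3688 bp on HFD-O304. The levels were 3.16 (2.89 to 3.45), 3.28 (3.02 to 3.55) and 3.42 (3.14 to 3.71), with overlapping intervals. An element of 436, 534 and 486 bp centred 2.00 kb before the start site was called on every diet.

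**Figure D4:**
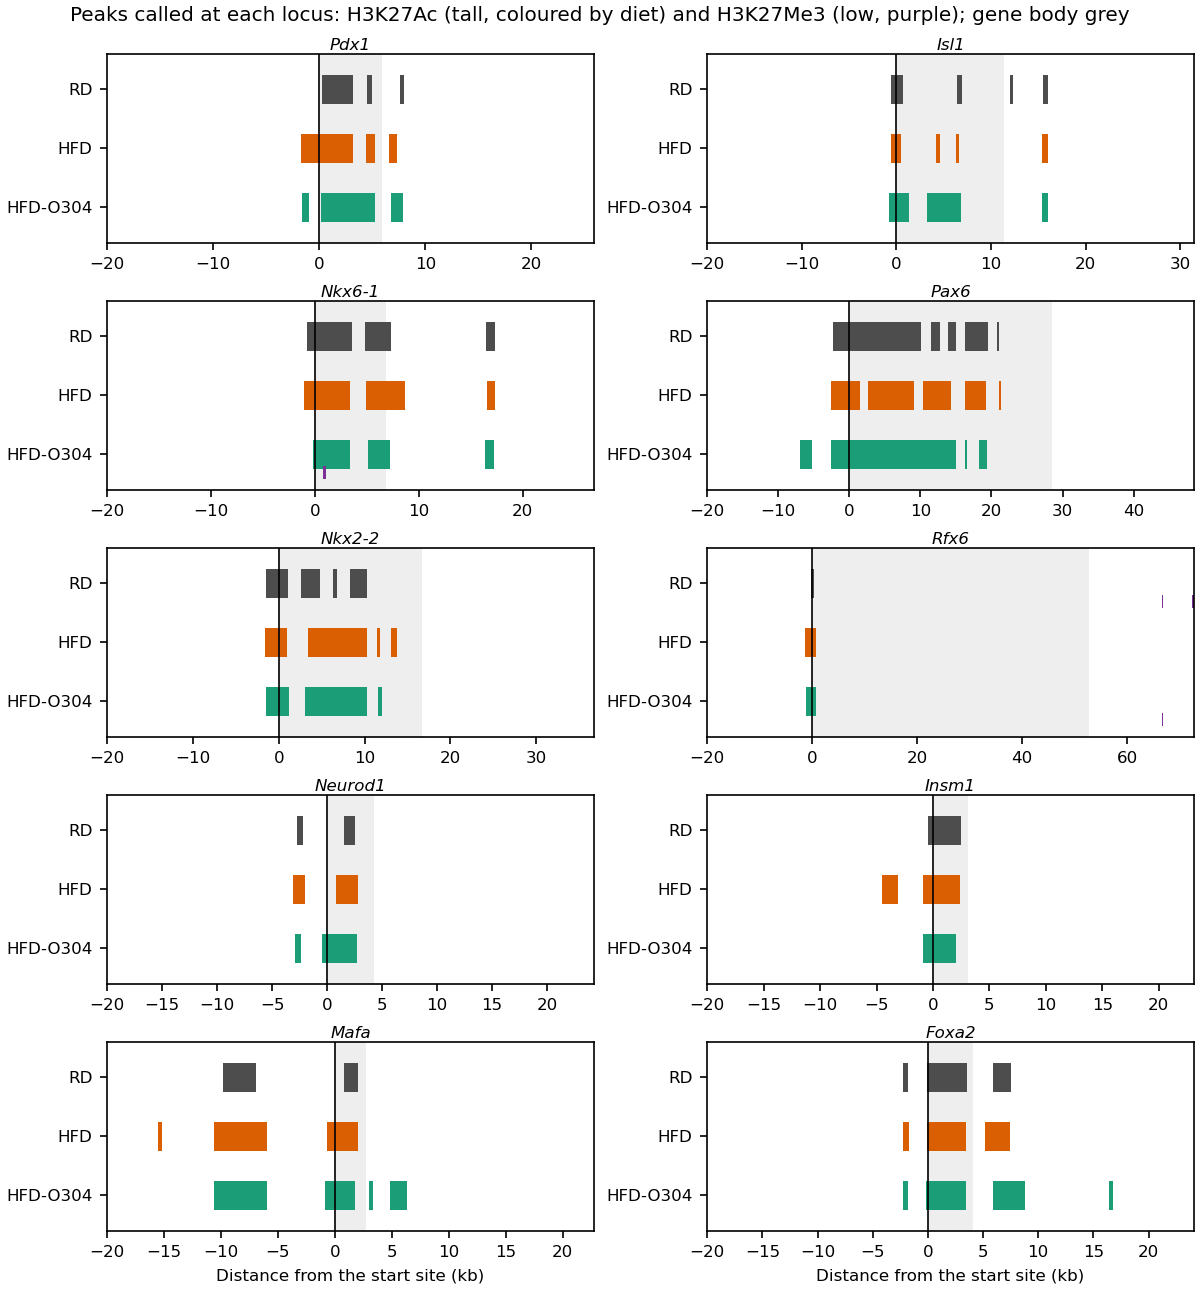
Peaks called over the locus of each factor in the 3 diets (rows), drawn to scale by distance from the 5′ end of the gene (horizontal axis, kb, in the direction of transcription), with the gene body in grey. Tall bars are H3K27Ac peaks coloured by diet and low purple bars are H3K27Me3 peaks; the regions that touch a promoter in some list recur on all diets, Pax6 is covered over most of its first 15 kb, and H3K27Me3 appears at Nkx6-1 and downstream of Rfx6 only.

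Over the loci, gene body and 20 kb on each side, H3K27Ac was called at 28 peaks on RD, 30 on HFD and 28 on HFD-O304, with 10 of 10 factors marked in each list against 63.4%, 69.5% and 68% of all genes. H3K27Me3 was called at 2, 0 and 2 peaks, in 1, 0 and 2 factors, against 29.9%, 30.6% and 36.4%. Joined where they overlapped, the H3K27Ac peaks formed 31 regions. Of these, 21 were found in all 3 lists, 2 in 2 lists and 8 in 1 list, while 54.8% of 21269 regions in the loci of all protein-coding genes were found in all 3. The 13 regions that touched the promoter of a factor in some list were met in all 3, against 75.9% of such regions over all genes. At Neurod1 this rests on the RD gene body peak, which overlapped the promoter peaks of the other diets and was itself no promoter peak. The 18 regions away from promoters split into 8 found on every diet (26.1% over all genes), 2 found on 2 diets and 8 on 1 diet. With so few regions, nothing particular to the factors is read from these counts. Of the 10 regions missing from some list, 0 reached −log10 q of 5 in any list. The same share was not computed over all genes, so nothing about the factors is read from this count.

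The 3 widest regions away from a promoter were each found on all diets. The widest lay upstream of Mafa at chr15:75754224-75758855, centred 8.31 kb before the start site, and was called over 2934 bp on RD, 4611 bp on HFD and 4632 bp on HFD-O304 at levels of 2.78, 2.83 and 2.82. The next covered the 3′ end of Nkx6-1 at chr5:101656319-101660212, over 2515, 3793 and 2149 bp at levels of 3.13, 3.10 and 3.30. The last lay downstream of Foxa2 at chr2:148038192-148041780, over 1696, 2226 and 2883 bp at levels of 2.83, 2.95 and 2.92, and a start site of the noncoding gene 9030622O22Rik lies within 1000 bp of it. In these regions the level differed less between diets than the width did. The level is a mean over called bases and is bounded from below by the lowest level called. Part of this contrast therefore lies in the measure.

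H3K27Ac covered 54.7 kb of the 10 loci on RD, 69.7 kb on HFD and 76.0 kb on HFD-O304. The ratio of HFD to RD was 1.27, beside 1.43 for the bases of the whole lists. For HFD-O304 against HFD it was 1.09, beside 0.94 for the lists, and for HFD-O304 against RD it was 1.39 beside 1.34. More bases were covered on HFD than on RD at 8 of 10 factors (78.1% of all genes), on HFD-O304 than on HFD at 6 of 10 (45.3%), and on HFD-O304 than on RD at 9 of 10 (74.3%). The widest promoter peak was wider on HFD than on RD at 5 of 9 factors (71.2% of all genes), on HFD-O304 than on HFD at 6 of 10 (46.4%), and on HFD-O304 than on RD at 8 of 9 (67.6%). With 9 or 10 genes in a count, nothing particular to the factors is read from these shares, and the lists differ in depth and in the lowest level they call. Isl1 and Pax6 were the factors with fewer covered bases on HFD than on RD.

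Distance to Polycomb chromatin was taken from the gene body to the nearest H3K27Me3 peak. Its median over the factors was 99.4 kb on RD, 113 kb on HFD and 82.2 kb on HFD-O304, beside 58.2, 56.7 and 41.0 kb over all genes. Single factors lay on both sides of all genes, on RD from percentile 25.8 (Rfx6) to 96.7 (Insm1). With 10 genes, nothing particular to the factors is read from the medians. Insm1 lay farthest from the mark, at 488, 538 and 488 kb in the 3 lists. The lists held 15517, 15438 and 22049 H3K27Me3 peaks in the same order, and a longer list shortens such distances for any gene. The shortest distances were 13.9 kb at Rfx6 on RD, 22.1 kb at Nkx6-1 on HFD and 0 kb at Nkx6-1 on HFD-O304, where the peak lay inside the gene. The Rfx6 peak on RD is repeat-masked and the Nkx6-1 peak on HFD-O304 is weak, as described above. Pdx1 stood at 25.4 kb on RD, 24.6 kb on HFD and 25.9 kb on HFD-O304, at percentile 33.3, 33.5 and 40.6 of all genes. The peak nearest to Pdx1 lay at Cdx2, a homeodomain factor of the intestine and neighbour of Pdx1, which is named here after its values were seen. The promoter of Cdx2 held H3K27Me3 at 3.50 on RD, 3.75 on HFD and 3.39 on HFD-O304 and no H3K27Ac peak. The pair of genes thus carried opposite marks on each of the 3 diets.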

How the data were processed

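The study's methods describe mapping of paired-end reads to GRCm38 with bowtie2, merging of the replicates of each mark and diet, and broad peak calling with MACS2. Per the file headers, the version was MACS 2.1.2, the q-value cutoff was 0.01 and a position kept 1 fragment. The study's methods also state a false discovery rate below 0.01 for the peaks. The options printed beside that statement give another cutoff, and the headers, written by the caller, were followed. The genome was taken as 1.87e+09 bases, with neither a control nor a local background. Inputs were thus not subtracted and are not analysed here. The authors' files give for each peak the pileup, a coverage signal in fragments per base, the fold enrichment (a ratio of pileup plus 1 to background plus 1) and −log10 p and −log10 q.

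From these, the level was computed as pileup over kept fragments × fragment size / 1.87e+09, and fragments per peak as pileup × width / fragment size. A deeper list calls weaker peaks. Genes came from GENCODE release 21. The peak with the highest pileup stood for each promoter. Named peaks were each factor's strongest promoter peak in each list, any other locus peak absent on some diet with −log10 q of at least 5 in another (there were 0), and the 3 widest regions away from promoters. Of other genes, those whose call differed were named. A further gene of the list of other regulators is not reported here. Lookups were tested on simulated data. The members and lists were chosen with earlier results of these data known. Analyses ran in Python with pandas, numpy and scipy.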

Additional observations from a re-analysis of the deposited data

How the results depend on the processing

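Each merged list is 1 value, so no replicate could be left out. No paired analysis was possible because peaks were called on merged replicates. Of 132 recomputed values, 112 stayed within the limits set and 20 did not. The limit for a count or ratio was 1.5 times the reported value. For a median log2 change it was the median half-width of the counting intervals of single genes, 0.17 to 0.18. That is wider than the reported medians of 0.04 to 0.07, so this limit was loose and the medians could hardly have failed it. A minimum −log10 q of 5 left 10 (RD), 16 (HFD) and 12 (HFD-O304) H3K27Ac peaks in the loci and 0 H3K27Me3 peaks in RD and HFD-O304. The H3K27Me3 promoter peak of Nkx6-1 in HFD-O304 was lost (0 factors) with that minimum, at a common cutoff of level, at equal list sizes, with a 500 bp window and when the start site itself had to be covered. H3K27Me3 peaks of the loci in RD fell to 0 at the common cutoff, without repeat-rich peaks and with 10 kb flanks, and in HFD-O304 to 1 under these settings and at equal list sizes. With 50 kb flanks they numbered 8, 7 and 8 in RD, HFD and HFD-O304. The median log2 change of promoter H3K27Ac from RD to HFD went from 0.04 to -0.000606 with only the 5′ start site and with a width-weighted mean over promoter peaks. That shift is inside the median counting half-width of a single gene, 0.17. Promoter H3K27Ac was called at 7 to 10 factors in RD and 9 or 10 in HFD and HFD-O304 over all alternatives.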
